A study of Mus musculus with 6 samples.

Results

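The genes described here are the transcriptional co-activators YAP (Yap1) and TAZ (Wwtr1), the TEAD transcription factors (Tead1 to Tead4) and their target genes Ccn1 (also Cyr61), Ccn2 (also Ctgf), Ankrd1 and Axl. They were chosen by gene symbol, though with earlier results of these data known. Of these 10 genes, 9 were measured, by 15 of the 45141 probe sets on the array (10 for the 6 factors and 5 for 3 targets). No probe set had Axl as its only symbol, and Axl was not analysed here. The study compared WT fibroblasts derived from mouse embryonic stem cells with fibroblasts of the same origin lacking CD98hc (CD98hc KO), the heavy chain of heteromeric amino acid transporters, encoded by Slc3a2. Each genotype label was carried by 3 arrays (replicates 1, 3 and 5), and both kinds of cells grew in the same high-glucose DMEM with serum, non-essential amino acids and β-mercaptoethanol. Neither the labels nor the paper tell if the arrays sharing a label are separate cultures, or how many clones make up a line, so a p-value reflects only the variation among these arrays, which may be technical.

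YAP and TAZ are paralogous co-activators that carry no DNA-binding domain and reach DNA through the TEAD factors, which bind the element CATTCC. The kinases of the Hippo pathway (MST and LATS) phosphorylate YAP and TAZ and keep them in the cytoplasm, while cell spreading, a stiff matrix and actin tension favour their entry into the nucleus. Their activity is therefore set to a large part by phosphorylation and localisation, which an expression array does not measure. Ccn1 and Ccn2, which encode secreted matricellular proteins, and Ankrd1, which encodes a nuclear and sarcomeric ankyrin repeat protein, are the most widely used transcriptional readouts of the pathway.

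Values are RMA log2 values per probe set, which can be compared between arrays for a probe set but not between probe sets. For Slc3a2 itself they were 10.64, 10.67 and 10.51 with the WT label against 11.65, 11.57 and 11.54 with the KO label, a log2 fold change of 0.98 (SE, the standard error from limma, 0.0747, adjusted p = 0.000125). The deleted gene was thus higher under the KO label, and since the place of its single probe set relative to the deleted part is not known here, the labels remain unchecked. All directions below therefore follow the labels, KO relative to WT. The groups also differed in cell type markers. The pluripotency markers measured, 9 in all, were each higher under the KO label by over 2-fold at an adjusted p below 0.05. Of all genes 9.27% were higher and 10.1% lower by that rule. The mean log2 value of these markers per array ran from 10.89 to 11.32 there against 4.87 to 5.06 under the WT label. Of 12 fibroblast markers 8 were lower and 0 higher by the same rule, with a mean per array of 5.9 to 6.15 against 8.58 to 9.05. Fn1 was well above background under both labels (means of 10.71 for WT and 10.03 for KO) and did not meet the rule. Its log2 fold change was −0.68 (adjusted p = 0.0715), and its values overlapped between the labels. Thy1, Fap and Pdgfra stayed near background under both labels (log2 values of at most 5.1, 3.94 and 4.7), Thy1 with a log2 fold change of 0.37 (adjusted p = 0.0298). The part of these differences in the results below was not tested, and in bulk RNA fewer cells of a type and less RNA per cell cannot be told apart. The spiked hybridisation controls separated the 2 replicate 3 arrays from the other 4 by −1.25 on the log2 scale, a split that crosses the labels. On the 4 arrays of replicates 1 and 5 alone, and with that split as a covariate, 3 factors and 2 targets were called, as on all 6 arrays.

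Calls required more than a 2-fold change together with an adjusted p below 0.05, and 19.4% of the 17097 genes met them (9.27% higher and 10.1% lower in KO-labelled RNA). Among the members, 3 of the 6 factors and 2 of the 3 measured targets were called, each of them lower on the KO-labelled arrays. Median log2 fold changes were −0.90 for the factors and −4.14 for the targets, against 0.02 for all genes. Among the members the largest log2 fold changes were those of the targets Ankrd1 (−5.20, a value limited by background under the KO label, with −4.22 for its other probe set) and Ccn1 (−4.14). Ccn2, the third target measured, was not called, and neither were Yap1, Tead1 and Tead2. The 3 values of one label lay apart from the 3 of the other for 7 of the 9 genes, where the share over all genes was 51.5%. For 3 against 3 arrays the smallest p of an exact permutation test of a single gene is 0.1, so the tests rest on the variance that limma shares between genes.

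**Figure D1:**
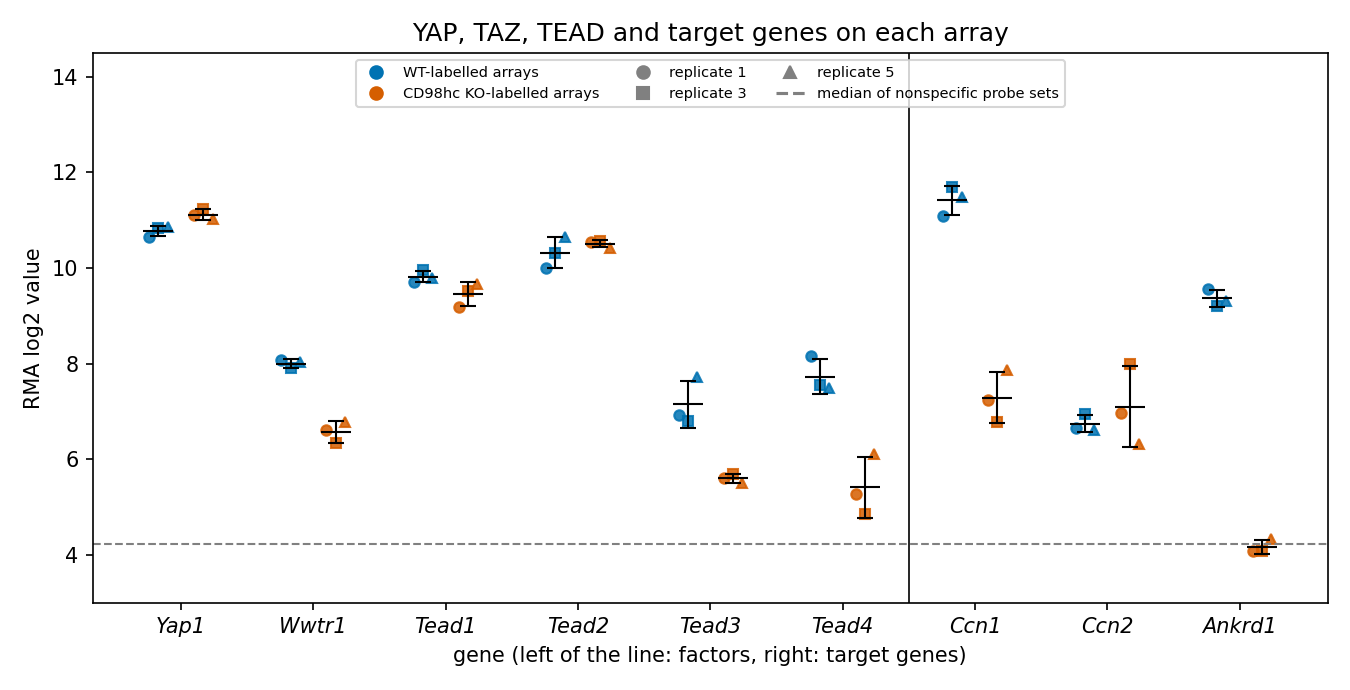
RMA log2 value (vertical axis) of each of the 9 measured genes on the 3 WT-labelled (blue) and 3 CD98hc KO-labelled (orange) arrays, with the replicate number as symbol, bars for the mean ± SD and dashes marking the nonspecific median (4.23). Ccn1 and Ankrd1 on the right lie far lower under the KO label, with Ankrd1 at the dashed level there, while Ccn2 overlaps between the labels and Yap1 and Tead2 sit at much the same height.

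Among the co-activators, Yap1 had log2 values of 10.65, 10.83 and 10.85 with the WT label against 11.10, 11.24 and 11.02 with the KO label. All 3 KO-labelled values were above the 3 WT-labelled ones, by a margin smaller than the range within each label. The log2 fold change was 0.34 (95% interval 0.12 to 0.56, SE 0.0918, adjusted p = 0.0253), under the 2-fold limit, and the p-value moved past 0.05 when WT replicate 1 (adjusted p = 0.075), KO replicate 1 (0.0611) or KO replicate 3 (0.0665) was left out. The second probe set of Yap1 gave 0.21 (adjusted p = 0.113 over all probe sets).

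Wwtr1, which encodes TAZ, had log2 values of 8.07, 7.90 and 8.04 with the WT label and of 6.62, 6.33 and 6.77 with the KO label. The labels were separated by over 1 log2 unit. Wwtr1 fell by 1.43 on the log2 scale (95% interval −1.73 to −1.13, SE 0.125, adjusted p = 0.000219), a 2.7-fold decrease. Its 3 probe sets gave log2 fold changes of −1.36, −1.40 and −1.43, each with an adjusted p of at most 0.00222 over all probe sets. The 95% intervals of the paralogues Yap1 and Wwtr1 lay on opposite sides of 0.

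Of the TEAD factors, which share a DNA-binding domain and partner with YAP and TAZ, Tead1 and Tead2 were not called and Tead3 and Tead4 were lower on the KO-labelled arrays. Tead1, a factor widely expressed in tissues, gave 9.71, 9.95 and 9.80 in WT-labelled RNA and 9.19, 9.52 and 9.67 in KO-labelled RNA. The KO-labelled values were all lower, the highest of them just below the lowest WT-labelled value, and the log2 fold change was −0.36 (95% interval −0.70 to −0.02, SE 0.139, adjusted p = 0.0847). Tead2, known for its expression in the early embryo, gave 10.00, 10.31 and 10.64 in WT-labelled RNA and 10.54, 10.56 and 10.42 in KO-labelled RNA. These values overlapped, with the wider spread under the WT label. The log2 fold change of Tead2 was 0.19 (95% interval −0.20 to 0.58, adjusted p = 0.417), an interval that leaves out a 2-fold change in either direction.

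Tead3, a member of the family expressed in the placenta among other tissues, had log2 values of 6.93, 6.80 and 7.71 with the WT label against 5.60, 5.69 and 5.51 with the KO label. WT replicate 5 was the highest, and all KO-labelled values were more than 1 log2 unit below the lowest WT-labelled one. The log2 fold change was −1.54 (95% interval −2.11 to −0.97, SE 0.237, adjusted p = 0.00247). Tead4, required for the trophectoderm of the blastocyst, gave 8.16, 7.56 and 7.49 in WT-labelled RNA and 5.28, 4.86 and 6.10 in KO-labelled RNA. The KO-labelled values spread over more than 1 log2 unit, with replicate 5 the highest, and did not reach those of the WT label. Tead4 fell by 2.32 on the log2 scale (95% interval −3.14 to −1.50, SE 0.34, adjusted p = 0.00202), the largest change among the factors, at 5-fold. Its second probe set gave −1.71 (adjusted p = 0.00428 over all probe sets). Of 7 markers of trophectoderm 2 were called (28.6%, against 19.4% of all genes), both higher on the KO-labelled arrays. These were Eomes (log2 fold change 3.87) and Tfap2c (3.26), with WT-labelled means of 4.89 and 4.39, near the nonspecific median of 4.23. Cdx2 stayed under the fold limit (0.74, adjusted p = 0.0416). Elf5, Gata3, Hand1 and Krt7 did not pass, with means of 4.57 to 5.51 across both labels, low enough to hide a decrease.

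**Figure D2:**
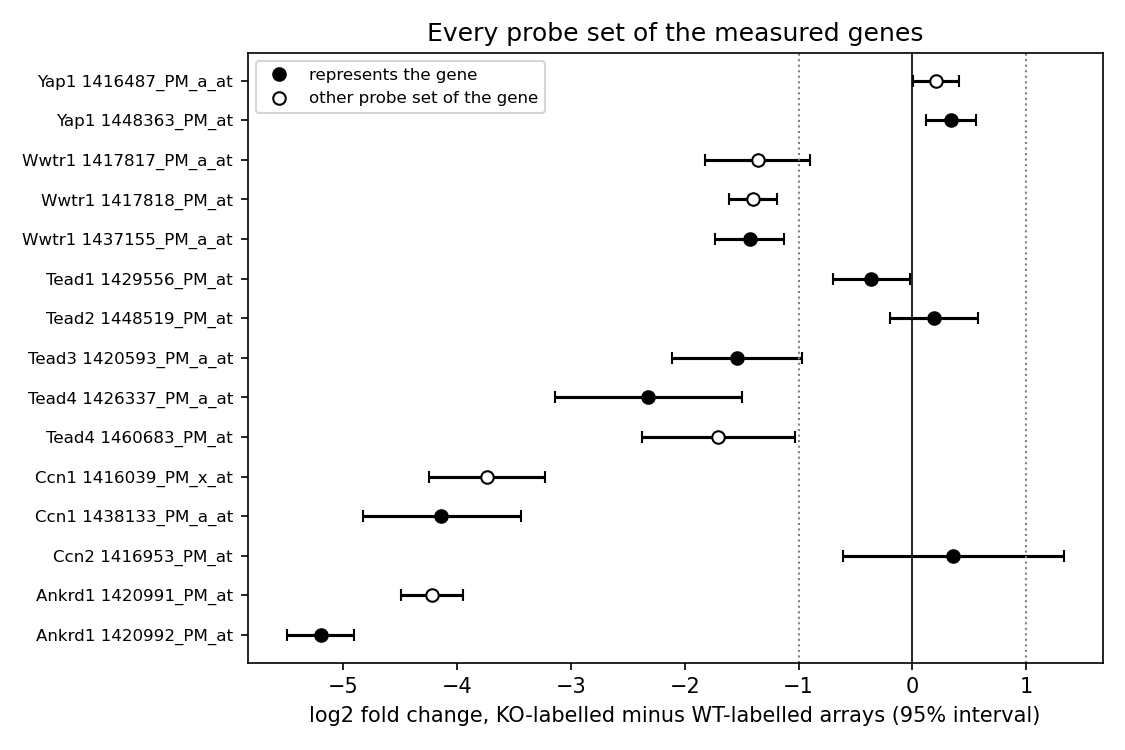
Log2 fold change, KO-labelled minus WT-labelled arrays, of each of the 15 probe sets of the measured genes (points) with its 95% interval (bars), where filled points mark the probe set that represents the gene and dotted lines a 2-fold change. Probe sets of the same gene lie close together for Wwtr1 (−1.36 to −1.43), and both probe sets of Ccn1 and of Ankrd1 lie at −3.74 or lower.

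Of the target genes, Ccn1 and Ankrd1 had larger fold changes than any factor. Ccn1 (Cyr61), whose product binds integrins in the matrix, had log2 values of 11.09, 11.69 and 11.49 with the WT label against 7.23, 6.78 and 7.86 with the KO label. No value of one label came within 3 log2 units of the other. Ccn1 fell by 4.14 on the log2 scale (95% interval −4.83 to −3.44, SE 0.289, adjusted p = 8.81e-05). Its second probe set, of a kind whose probes can also match other sequences, gave −3.74 (adjusted p = 5.55e-05 over all probe sets).

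Ankrd1 gave 9.56, 9.21 and 9.32 in WT-labelled RNA and 4.07, 4.08 and 4.33 in KO-labelled RNA. The KO-labelled values lay at the level of the 23 probe sets for nonspecific background, whose median was 4.23 (from 3.28 to 8.32), so the log2 fold change of −5.20 (95% interval −5.50 to −4.91, SE 0.121, adjusted p = 1.51e-06) is limited by background on the KO side. The second probe set of Ankrd1 gave log2 values of 9.58, 9.43 and 9.43 against 5.14, 5.48 and 5.15 and a log2 fold change of −4.22 (adjusted p = 3.67e-06 over all probe sets).

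Ccn2 (Ctgf), the closest relative of Ccn1 among the targets and, like it, a matricellular protein, was not called. Its single probe set gave 6.65, 6.94 and 6.62 in WT-labelled RNA and 6.97, 8.00 and 6.32 in KO-labelled RNA. The KO-labelled arrays held both the highest and the lowest value, so the labels overlapped. The log2 fold change was 0.36 (95% interval −0.61 to 1.33, SE 0.401, adjusted p = 0.551), an interval that leaves out a decrease of the size found for Ccn1 or Ankrd1 but not an increase of 2-fold. Without KO replicate 3, the array with the highest value, it was −0.10 (adjusted p = 0.788).

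Stretches of DNA upstream of these genes are shown with matches to the short element that the TEAD factors bind. The RefSeq promoter table (GRCm38.p6, 250 bases before to 50 bases after each annotated start) held 7 of the 10 members, and not Ccn2, Tead1 and Tead4. Both strands were searched for CATTCC, which reads GGAATG on the other strand. The element stood in at least 1 promoter of 6 of these 7 genes, against 16.6% of the 27025 genes in the table (14.7% of 32851 promoters), and Tead2 had none in this window. Such a match is a description of the letters and not a bound site. The targets were picked as target genes of the TEAD factors, and Tead3 and Wwtr1 each have several promoters there. The comparison with all genes is therefore no test of the element. The 250 bases before the start of the called targets Ccn1 (chr3:145649986-145650235, minus strand) and Ankrd1 (chr19:36119845-36120094, minus strand) follow, 5′ to 3′ along the gene, with the element in capitals. It starts 103 bases before the start of Ccn1 and 210 and 123 bases before that of Ankrd1, and 1.36% of all promoters held 2 or more.
Ccn1: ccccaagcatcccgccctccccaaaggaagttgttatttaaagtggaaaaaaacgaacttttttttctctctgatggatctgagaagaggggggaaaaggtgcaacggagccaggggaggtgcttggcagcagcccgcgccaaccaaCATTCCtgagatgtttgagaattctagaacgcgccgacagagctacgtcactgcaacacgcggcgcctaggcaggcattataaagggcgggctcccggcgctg
Ankrd1: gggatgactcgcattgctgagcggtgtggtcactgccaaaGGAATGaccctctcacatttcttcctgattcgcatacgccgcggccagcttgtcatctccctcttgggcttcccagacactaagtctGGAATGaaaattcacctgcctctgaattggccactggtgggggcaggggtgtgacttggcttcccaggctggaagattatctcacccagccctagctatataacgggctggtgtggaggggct

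The element was also present upstream of factors that were called and of one that was not. Windows of 60 bases around it are given for Wwtr1 (chr3:57576014-57576073, minus strand), for Tead3 (chr17:28350955-28351014, minus strand, before the most upstream of its starts in the table) and for Yap1 (chr9:8004705-8004764, minus strand). A window is also given for Axl (chr7:25788924-25788983, minus strand), whose expression was not analysed here. Wwtr1, Tead3 and Yap1 carry GGAATG in these windows although Wwtr1 and Tead3 were lower on the KO-labelled arrays and Yap1 was not called.
Wwtr1: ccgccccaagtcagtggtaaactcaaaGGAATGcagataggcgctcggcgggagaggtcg
Tead3: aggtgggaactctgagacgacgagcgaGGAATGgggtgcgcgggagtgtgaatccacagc
Yap1: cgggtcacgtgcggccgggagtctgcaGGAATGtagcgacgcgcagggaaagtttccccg
Axl: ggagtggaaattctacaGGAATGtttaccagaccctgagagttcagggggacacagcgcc

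The other genes of the pathway were grouped by role in lists written from knowledge of the field, likewise with earlier results of these data known. The Vgll cofactors bind TEAD in place of YAP and TAZ. Of the 4 measured, Vgll3 and Vgll4 were called (50%, against 19.4% of all genes), both lower on the KO-labelled arrays. Vgll3 had log2 values of 8.12, 8.78 and 8.11 with the WT label and of 3.99, 4.28 and 4.55 with the KO label, the latter near the nonspecific median. Its log2 fold change was −4.06 (SE 0.224, adjusted p = 3.34e-05), limited by background on the KO side, and its other probe sets gave −3.09 and −1.99. Vgll4, a repressor of TEAD activity, had a log2 fold change of −1.30 (SE 0.139, adjusted p = 5e-04). Vgll1 and Vgll2 did not pass (log2 fold changes of 0.04 and 0.06). Their mean log2 values were low under the WT and KO labels, at 5.5 and 5.54 for Vgll1 and 4.59 and 4.65 for Vgll2.

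Of 23 upstream regulators of the Hippo pathway 20 were measured. On the KO-labelled arrays 8 were lower and 1 higher by over 2-fold (45% called, against 19.4% of all genes). The median log2 fold change was −0.79. With no fold limit 14 of the 20 passed, 12 lower and 2 higher, where that rule passed 41.9% of all genes. The largest changes were those of Amot and Amotl1, angiomotins that hold YAP at cell junctions, of the kinase Lats1 and of the FERM domain protein Frmd6. Amot had log2 values of 8.45, 8.41 and 8.70 against 5.44, 6.04 and 6.27 and a log2 fold change of −2.60 (SE 0.216, adjusted p = 0.00018), with −2.49 and −1.53 for its other probe sets. Lats1, which phosphorylates YAP and TAZ, gave 9.94, 10.15 and 9.72 in WT-labelled RNA and 7.29, 8.32 and 7.62 in KO-labelled RNA, and fell by 2.19 on the log2 scale (SE 0.268, adjusted p = 0.000919), with −1.75 for its other probe set. The labels did not overlap for either gene. Frmd6 and Amotl1 had log2 fold changes of −1.89 (adjusted p = 0.000158) and −1.86 (adjusted p = 0.000634), though 1 of the 3 probe sets of Amotl1 gave only −0.59. Fat1, an atypical cadherin at the top of the pathway, was the regulator called higher, with a log2 fold change of 1.22 (SE 0.138, adjusted p = 0.00065). Nf2, the tumour suppressor merlin, and Stk4, an MST kinase, had log2 fold changes of −0.01 (adjusted p = 0.976) and 0.38 (adjusted p = 0.151). Lats1 and Amot, which inhibit YAP and TAZ, were lower in the same RNA as the co-activator Wwtr1 and the targets Ccn1 and Ankrd1. Any relation between these changes was not tested.

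**Figure D3:**
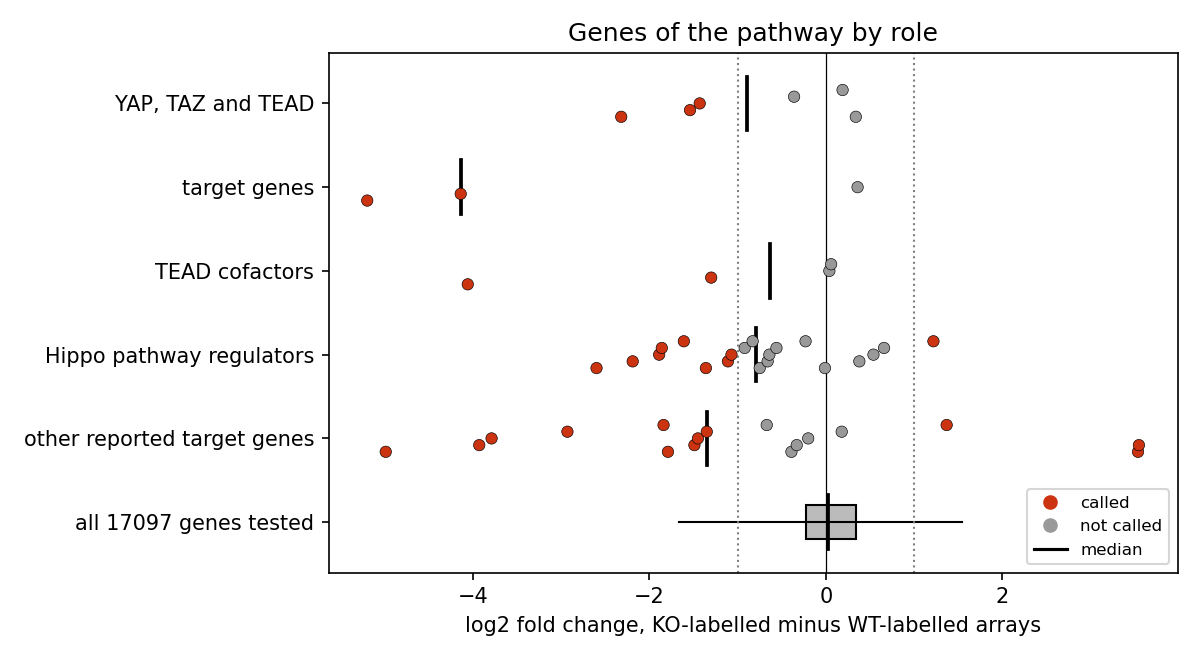
Log2 fold change, KO-labelled minus WT-labelled arrays, of each measured gene in 5 groups of the pathway (points, red where called), with a short line for the group median and, for all 17097 genes, a box from the 25th to the 75th percentile (−0.23 to 0.34) and a line from the 5th to the 95th (−1.67 to 1.54). Medians of the groups run from −0.63 for the TEAD cofactors to −4.14 for the 3 measured targets, and the other reported targets reach from −4.99 to 3.55.

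A further 18 genes reported elsewhere as YAP and TAZ targets were taken as a wider readout, and 17 of them were measured. Of these, 9 were lower and 3 higher on the KO-labelled arrays (70.6% called, against 19.4% of all genes). Of all genes 10.1% were called lower and 9.27% higher. The median log2 fold change of the wider set was −1.35. Myof, a membrane repair protein, had log2 values of 11.33, 10.93 and 11.37 with the WT label and of 6.11, 6.16 and 6.40 with the KO label, a log2 fold change of −4.99 (SE 0.145, adjusted p = 2.94e-06), while its other probe set stayed near background under both labels (means of 4.31 and 4.21). Lats2, at once a target and a kinase that inhibits YAP, had 8.74, 8.82 and 8.59 against 4.55, 4.85 and 4.96 and fell by 3.93 on the log2 scale (SE 0.126, adjusted p = 4.27e-06) to a level near background, and its other 4 probe sets gave −0.60 to −3.04. Dock5, an activator of Rac, fell by 3.79 on the log2 scale (adjusted p = 7.4e-06), with −3.50 and −1.83 for its other probe sets.

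Of the wider set, 3 genes were called higher. Fjx1, a secreted relative of the Drosophila kinase four-jointed, had log2 values of 5.56, 5.55 and 5.38 with the WT label against 9.53, 8.71 and 8.88 with the KO label, a log2 fold change of 3.55 (SE 0.212, adjusted p = 4.64e-05), with 3.37 and 0.08 for its other probe sets. Igfbp3, a binding protein of insulin-like growth factors, had 4.33, 4.32 and 4.37 against 8.37, 7.69 and 7.58, a log2 fold change of 3.54 (adjusted p = 4.09e-05) that is limited by background on the WT side. Gadd45a, also induced by DNA damage, had a log2 fold change of 1.37 (adjusted p = 0.000242). Amotl2, F3, Nt5e, Rbms3 and Tgfb2 were not called, with log2 fold changes from −0.67 to 0.18, and F3, Rbms3 and Tgfb2 had log2 values of 4.13 to 5.02 on all arrays, near the nonspecific median.

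**Figure D4:**
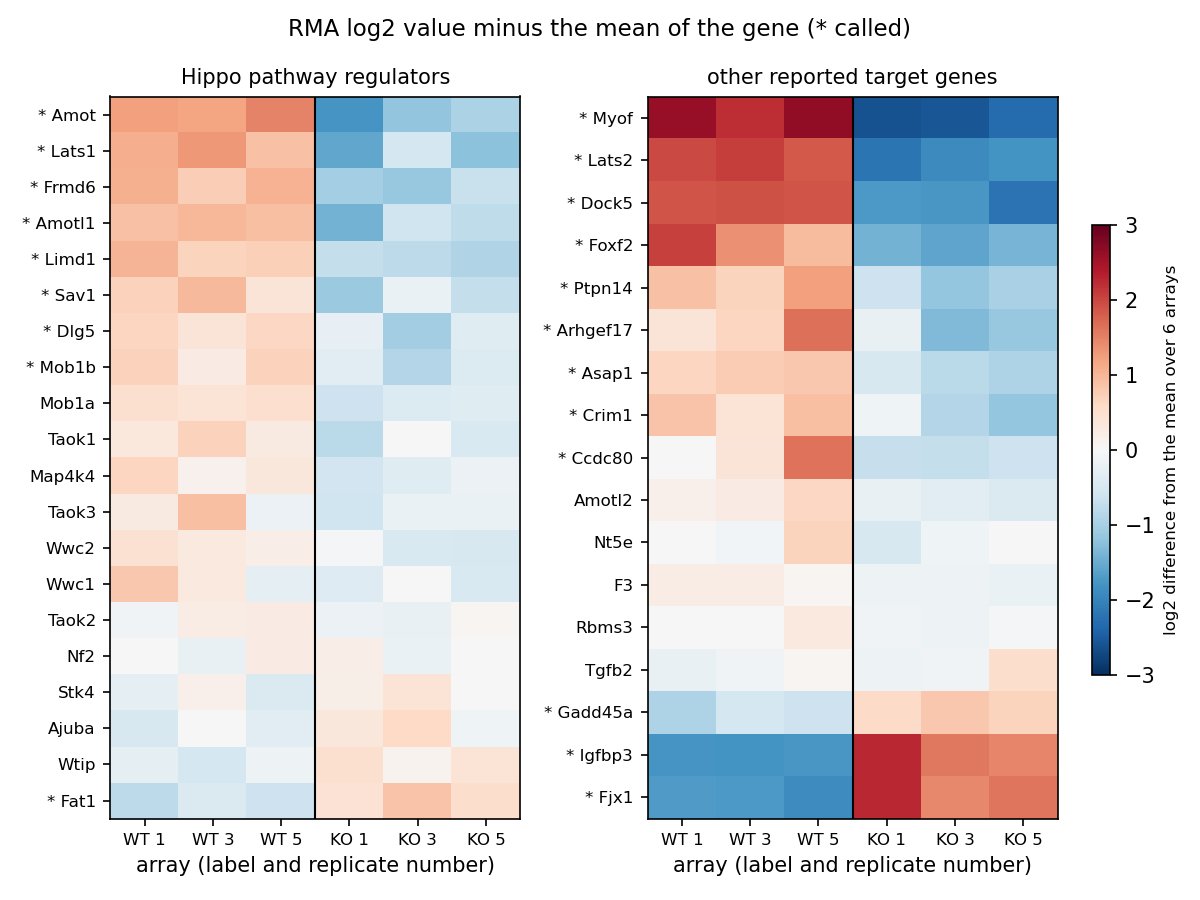
RMA log2 value of each measured Hippo pathway regulator (left) and each other reported target gene (right) on each of the 6 arrays, as the difference from the mean of the gene over the arrays, from 3 below (blue) to 3 above (red), with asterisks on called genes. Most called genes are red under the WT label and blue under the KO label, and Fat1, Gadd45a, Igfbp3 and Fjx1 at the bottom show the reverse.

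The profiles most like those of the leading members were found as the smallest root-mean-square difference of log2 values, each centred on its own mean, over the 6 arrays. For Tead4 these were Ly75 (0.145 log2 units), Pter (0.212) and Zfp703 (0.254), whose values under the KO label were likewise highest in replicate 5. For Ankrd1 they were Myof (0.149), Twist2 (0.154) and Sox9 (0.17), the last 2 being transcription factors of mesenchyme and cartilage, with log2 fold changes of −5.10 and −5.17. With 6 arrays in 2 groups such likeness reflects mostly the size of the difference between the labels.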

How the data were processed

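RNA was hybridised to Affymetrix mouse genome arrays of the perfect match type, 1 array per sample. The authors deposited log2 values per probe set, made by RMA (Robust Multichip Average), which corrects background, normalises the arrays together and summarises each probe set. The paper's methods name affyPLM for this, and the labels give no version. No detection calls were used, so values near background were not marked as present or absent. Precision rests on the number of arrays and on the variance that limma shares between genes.

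Of 45141 probe sets, 28898 had 1 gene symbol in the platform annotation, of which 28689 were matched by gene identifier to RefSeq (GRCm38.p6). The probe set with the largest SD over all 6 arrays stood for its gene, which gave 17097 genes. The contrast of KO-labelled minus WT-labelled arrays was fitted to all probe sets with limma 3.58.1 in R 4.3.3 (lmFit, then eBayes), with Benjamini-Hochberg adjustment over the genes. The paper's model includes the scan batch, but no source used here assigns arrays to scan batches, and the model had no covariate. Every adjusted p in the text is from limma.

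The members and lists were chosen with earlier results of these data known. Beside the members, up to 4 called genes of each pathway list with the largest fold changes were named, along with Slc3a2 and, for the factor and the target with the largest fold change, the 3 genes with the most similar profile. Other list genes and markers were named after their values were seen. The fit was tested on simulated data. Alternatives were a replicate block, the split by hybridisation controls (replicate 3 against replicates 1 and 5, known from earlier results of these data) as covariate, the 4 arrays of replicates 1 and 5 alone, other choices of probe set, further normalisation, a filter on the dimmest 25% of genes, another variance model, no fold limit and each array left out. Promoters were those of RefSeq. Figures were drawn with matplotlib 3.10.9.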

Additional observations from a re-analysis of the deposited data

How the results depend on the processing

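Of 320 values for the 20 genes of the members, lists and Slc3a2 recomputed with 16 alternatives, 316 kept their direction and their call, which needs both the adjusted p and the 2-fold limit. Slc3a2 passed 2-fold with 3 of them (log2 fold change of up to 1.02). The log2 fold change of Ccn2 was −0.10 without KO replicate 3 and 0.75 without KO replicate 5, and 0.01 on the 4 arrays of replicates 1 and 5. The adjusted p taken alone moved across 0.05 for genes that were not called either way. That of Yap1 was under 0.05 with 11 of 16 alternatives (0.0161 to 0.0915 over all), and that of Tead1 with 3 of 16 (0.04 to 0.269). As the mean of all probe sets the log2 fold change was −1.91 for Lats2, −2.54 for Myof, −3.04 for Dock5 and 2.33 for Fjx1. With no fold limit 14 regulators and 7160 genes were called. Called were 3 factors, 2 targets and 2 cofactors whichever array was left out, 8 to 9 regulators and 11 to 12 of the other targets. With the replicate number as a block 3326 genes were called, 3308 of them among the 3318, and the same 28 genes of the lists. Deviations of same-numbered arrays correlated by 0.057, 0.558 and 0.152 over probe sets, and 3 of 6 arrays correlated best with their own number, so the numbers were not taken as pairs. With 3 arrays per label, small changes such as those of Tead1, Tead2 and Ccn2 were not resolved.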
